A study of Mus musculus with 4 samples.

Results

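The paraoxonase family of the mouse was followed in sorted alveolar type II cells (AEC2), the lung epithelial cells that make surfactant. Its members were taken as every probe set that the platform annotation assigns to the single symbol Pon1, Pon2 or Pon3, which gave 3 genes and 6 probe sets of 18194 genes and 34958 probe sets with 1 symbol. Pon1 and Pon3 were each read by 1 probe set and Pon2 by 4. The family was chosen because Pon1 fell most after bleomycin in both genotypes, so bleomycin differences of the members are descriptions, and no test was made on them.

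AEC2 were flow sorted from mouse lungs that were untreated or had received bleomycin, a DNA-damaging drug used to model lung injury and fibrosis, 4 days earlier. The 4 groups were untreated wild type, untreated TLR4-/-, wild type at day 4 and TLR4-/- at day 4, where TLR4-/- mice lack Toll-like receptor 4, a receptor of innate immunity. Each group was 1 array made from cells pooled from 4 to 5 mice, so no spread between replicates could be measured. The knockout allele, strain, age and sex of the mice and the dose and route of bleomycin are not given in the sources used here, and untreated lungs, not vehicle-treated ones, were the controls.

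Paraoxonases are calcium-dependent hydrolases that cleave lactones, and Pon1 also hydrolyses aryl esters and the oxon forms of some organophosphates, which gave the family its name. Pon1 and Pon3 proteins are known mainly from the liver, and Pon1 also from high-density lipoprotein in plasma. Pon2 stays inside cells, in membranes of the endoplasmic reticulum and mitochondria. All members are described as limiting lipid peroxidation or oxidative stress, and they hydrolyse acyl-homoserine lactones, the signalling lactones of bacteria such as Pseudomonas aeruginosa.

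The 3 genes lie side by side on mouse chromosome 6, in the order Pon1, Pon3, Pon2. Their sequences just before the start of transcription are shown because neighbouring genes of one family differed here in their values after bleomycin. The windows are the 250 bases before the RefSeq start on the minus strand of GRCm38.p6, at chr6:5193947-5194196 for Pon1, chr6:5256234-5256483 for Pon3 and chr6:5298341-5298590 for Pon2. They are written 5′ to 3′, and capitals mark matches to any of 7 motifs.
Pon1: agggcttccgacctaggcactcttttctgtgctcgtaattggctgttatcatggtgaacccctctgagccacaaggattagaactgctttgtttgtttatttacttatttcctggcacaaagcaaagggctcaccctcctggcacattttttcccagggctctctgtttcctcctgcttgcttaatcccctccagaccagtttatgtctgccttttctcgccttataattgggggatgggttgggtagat
Pon3: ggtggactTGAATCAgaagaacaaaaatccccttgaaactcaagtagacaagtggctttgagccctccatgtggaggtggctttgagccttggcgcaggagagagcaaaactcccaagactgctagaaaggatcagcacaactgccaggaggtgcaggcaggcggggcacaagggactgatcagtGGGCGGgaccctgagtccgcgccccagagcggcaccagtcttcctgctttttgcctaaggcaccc
Pon2: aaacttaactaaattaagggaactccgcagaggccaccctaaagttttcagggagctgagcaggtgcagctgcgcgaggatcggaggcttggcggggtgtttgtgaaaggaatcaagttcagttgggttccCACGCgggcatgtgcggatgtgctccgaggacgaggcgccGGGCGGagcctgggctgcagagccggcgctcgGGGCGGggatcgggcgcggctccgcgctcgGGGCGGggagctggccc
The windows differed in composition. That of Pon1 was 47.6% G or C and held 3 CpG dinucleotides, that of Pon3 was 56.8% with 6 CpG, and that of Pon2 was 65.6% with 24 CpG. Over 32851 windows of the same length before RefSeq starts, the medians were 52.4% and 6 CpG, and the middle 50% of windows held 2 to 16 CpG. Pon2 thus has a CpG-rich start and Pon1 does not.

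The motifs were searched on both strands. The GC box GGGCGG, bound by Sp1, matched 3 times in Pon2, starting 79, 47 and 17 bases before the start, and once in Pon3, 65 bases before it, and 32.7% of all windows hold it. The dioxin response core GCGTG, bound by the aryl hydrocarbon receptor with Arnt, matched once in Pon2, 119 bases before the start, as its complement CACGC (28.2% of all windows). The AP-1-like pattern TGANTCA, where N is any base, matched once in Pon3 as TGAATCA, 242 bases before the start (6.75% of all windows). Its middle base is not the C or G of the AP-1 consensus, so the match is not an AP-1 site in the strict sense. No match overlapped another. The nuclear receptor half-site AGGTCA (14.0% of all windows), the HNF1 half-site GTTAAT (6.43%), the E-box CACGTG (6.02%) and the antioxidant response core TGACNNNGC (10.2%) matched in none of the 3 windows, and Pon1 had 0 matches to the 7 motifs. These matches describe letters in the windows; no binding or chromatin measurement was used here.

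The deposited values are log2 signals per probe set, and differences between arrays are log2 differences. The array medians lay between 6.93 and 6.98. Of the 4 Tlr4 probe sets 1 was lower in both TLR4-/- pools, 3.09-fold when untreated and 6.42-fold at day 4, while the others were not lower in both, and which of them lie in the deleted part is not known. AEC2 markers were bright on all arrays, Sftpc between 14.02 and 14.06. Genes were averaged over their probe sets, and the 9097 genes with a mean level above the median gene, 7.05, were kept. All 3 paraoxonase genes passed. The limma model described below gave a typical standard deviation of 0.23 for a difference between 2 arrays. This value rests on how far the genotypes' responses differed, not on replicate arrays, and serves below as the spread between arrays. It is 1 standard deviation, estimated on gene averages and not on single probe sets. A difference beyond it can therefore still be noise.

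Pon1, the gene that the rule chose for its fall, was the member with the largest bleomycin differences in both genotypes. Its probe set, 1418190_at, read 10.82 in untreated wild type and 10.92 in untreated TLR4-/-, against 8.97 in wild type and 8.82 in TLR4-/- at day 4. Both day 4 arrays were below both untreated arrays, as in 21.7% of the 9097 genes. The difference was -1.86 in wild type, 3.62-fold lower, and -2.10 in TLR4-/-, 4.28-fold lower. From the highest array to the lowest, the neighbouring values were 0.10, 1.86 and 0.14 apart. The step of 1.86 is a value that the rule used, so it was not set against the spread.

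**Figure D1:**
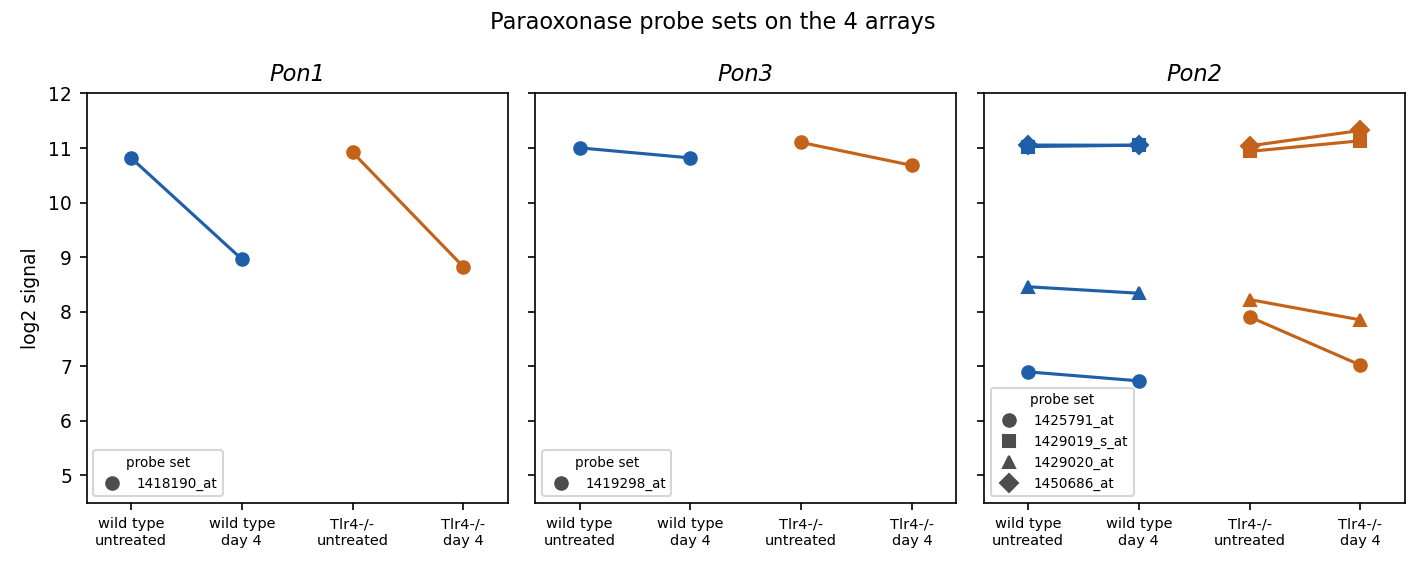
The log2 signal of each paraoxonase probe set on the 4 arrays, with wild type in blue and TLR4-/- in orange and a line joining the untreated and day 4 arrays of a genotype. Each point is 1 array. Pon1 goes from 10.82 to 8.97 and from 10.92 to 8.82, Pon3 stays between 10.68 and 11.10, and the 4 probe sets of Pon2 differ in direction.

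Pon1 was 1 of 6 genes at least 2-fold lower in both genotypes, which were 0.066% of the 9097 genes. In wild type 28 genes (0.308%) and in TLR4-/- 81 genes (0.89%) were at least 2-fold lower. The rule picked Pon1 on these differences, so its place among the genes is a description. Ranked by the smaller of the genotypes' differences, the next genes after Pon1 were the orphan receptor gene Gpr153 (-1.37 in wild type and -1.32 in TLR4-/-) and the chemokine gene Ccl27a (-1.27 and -1.64). In wild type alone 1 gene had a lower value than Pon1, Speer4cos (-2.18, but 0.15 in TLR4-/-). In TLR4-/- alone there were 2, the small GTPase gene Gem (-2.46) and Spr, which makes tetrahydrobiopterin (-2.33); Speer4cos and Spr were named after their values were seen.

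**Figure D2:**
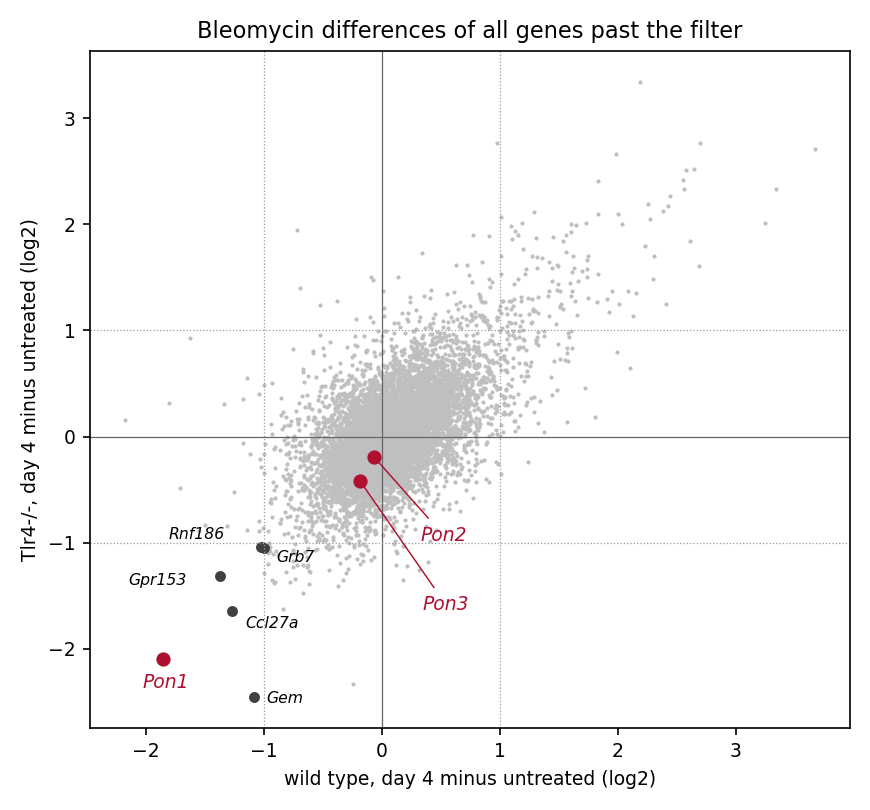
Day 4 minus untreated log2 difference in wild type (horizontal) and in TLR4-/- (vertical) for the 9097 genes past the filter, each grey point a gene, with dotted lines at 2-fold. Pon1, chosen for its fall, lies at -1.86 and -2.10. The 5 next lowest genes are black, and Pon2 and Pon3 lie inside the cloud.

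Pon3, whose protein is a lactonase, differed much less. Its probe set, 1419298_at, read 11.00 in untreated wild type, 11.10 in untreated TLR4-/-, 10.82 in wild type at day 4 and 10.68 in TLR4-/- at day 4. Both day 4 arrays were below both untreated arrays, but by little. The difference was -0.18 in wild type, within the spread between arrays, and -0.42 in TLR4-/-, beyond it, or 1.14-fold and 1.34-fold lower. With quantile normalization the wild-type difference was -0.28, also beyond the spread. Among the 9097 genes, 19.8% had a lower difference than Pon3 in wild type and 10.3% in TLR4-/-. Pon3 and Pon1 had the same order of arrays, with untreated TLR4-/- highest, then untreated wild type, wild type at day 4 and TLR4-/- at day 4; 7.65% of genes had it. For Pon3 the gaps along this order were 0.10, 0.18 and 0.14, so no neighbouring arrays differed beyond 0.23 in the values as deposited.

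Pon2, the intracellular member, showed no shared direction among its probe sets. The 4 probe sets averaged 9.36 in untreated wild type, 9.53 in untreated TLR4-/-, 9.29 in wild type at day 4 and 9.33 in TLR4-/- at day 4. These averages differed by -0.07 after bleomycin in wild type and by -0.19 in TLR4-/-, both within the spread between arrays. All 3 members thus had both day 4 averages below both untreated ones, as did 21.7% of the 9097 genes, but for Pon2 the gap between the lower untreated and the higher day 4 array was 0.03.

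The brightest probe sets of Pon2 were flat in wild type. Probe set 1450686_at read 11.06 untreated and 11.05 at day 4 in wild type, and 11.04 and 11.32 in TLR4-/-. Probe set 1429019_s_at, whose suffix marks probes shared by several transcripts, read 11.03 and 11.05 in wild type and 10.94 and 11.13 in TLR4-/-. Both were a little higher after bleomycin in TLR4-/-, by 0.28 and 0.19, where the average over the probe sets was lower.

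The other probe sets of Pon2 went the other way in TLR4-/-. Probe set 1429020_at read 8.46 and 8.34 in wild type and 8.22 and 7.85 in TLR4-/-, a difference of -0.37. Probe set 1425791_at read 6.90 and 6.73 in wild type and 7.91 and 7.02 in TLR4-/-, a difference of -0.88. It was dim, with a mean of 7.14 below the median of all probe set means, 7.27, and its value in untreated TLR4-/- stood above the others. Which parts of the Pon2 transcripts each probe set reads is not given in the labels or files, so a change of isoform and a poor probe set cannot be told apart.

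The bleomycin responses of the genotypes were then compared for each member. The response in TLR4-/- minus that in wild type was -0.24 for Pon1, -0.13 for Pon2 and -0.24 for Pon3. With 1 array a group this difference has no test. For Pon2 it turned to 0.29 with the brightest probe set and to 0.17 with 1429019_s_at. The median of all genes was -0.07, and the middle 90% of genes lay between -0.65 and 0.53. The values of all 3 members lay inside that range. The rule chose Pon1 for a drop in both genotypes, so its difference between responses is a description.

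The genotype contrast was not used to choose the family and could be tested. limma was fitted to all 9097 genes with treatment and genotype as factors, which leaves 1 residual degree of freedom per gene and counts a difference between the responses as error. For Pon1, TLR4-/- minus wild type was 0.10 untreated and -0.14 at day 4, averaging -0.02 ± 0.16 (SE, 95% interval -0.36 to 0.32, limma adjusted p = 0.986). For Pon3 it was 0.10 and -0.14, averaging -0.02 ± 0.16 (interval -0.36 to 0.32, limma adjusted p = 0.986). For Pon2 it was 0.17 and 0.04, averaging 0.10 ± 0.16 (interval -0.24 to 0.44, limma adjusted p = 0.908).

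No paraoxonase was called for genotype (0 of 3), and neither was any other gene, 0.0% in each direction, with 822 genes (9.04%) at an unadjusted limma p under 0.05. The intervals leave room for differences of up to about 0.4 either way, so they do not show that the genotypes were alike. On single arrays, the dim Pon2 probe set 1425791_at was 2.01-fold higher in untreated TLR4-/- than in untreated wild type. At day 4 it was only 0.29 higher. In the untreated pools 71 genes (0.78%) were at least 2-fold higher, a share of gene averages past the filter. The share among single dim probe sets was not counted, so 0.78% does not show how rare this value is. Probe set 1429020_at was lower in TLR4-/- in both treatments, by -0.23 and -0.49. The signs of the Pon2 probe sets thus disagreed for genotype too.

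Markers of other cells and of sex moved with the treatment in the same pools. Calls for bleomycin come from the same limma fit, in which 7.18% of all genes rose and 2.53% fell. With 1 array left out, both factors would leave no residual degree of freedom, so those fits had treatment alone; without a day 4 array, the single one left was assumed to vary like the untreated arrays. Such fits called 18 genes that rose and 3 that fell without the wild-type day 4 array, and 0 and 0 without the TLR4-/- day 4 array. They differ in form from the fit of all arrays, and the cause of the lower counts was not tested. In bulk RNA, fewer cells of a type and less RNA per cell cannot be told apart. Of 11 measured AEC2 markers limma called 0 in either direction, and 6 were lower in both genotypes, as were 27.6% of all genes. Among these the lung epithelial transcription factors Cebpa and Nkx2-1 averaged -0.54 ± 0.17 and -0.40 ± 0.16 without passing, and were named after their values were seen. The AEC2 markers had a median average of -0.11 and a summed signal (log2) of 16.40 and 16.39 in untreated and 16.37 and 16.26 in day 4 wild type and TLR4-/- pools. Leukocyte and macrophage markers rose in 11 of 12, their summed signal going from 11.58 to 12.91 in wild type and from 11.60 to 13.28 in TLR4-/-. The summed AEC2 signal is mostly that of the surfactant genes, which lie near the upper limit of the array.

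Airway cells can also carry hydrolases and drug-metabolising enzymes. Club cell markers were called in 1 of 9 (Reg3g rose), with summed signals of 14.90 in untreated wild type, 14.05 in untreated TLR4-/-, 14.57 in wild type at day 4 and 14.53 in TLR4-/- at day 4. Ciliated cell markers fell in 2 of 4, Tppp3 and Dynlrb2, while Rsph1 and Dnah5 averaged 0.002 and 0.04. Their summed signals were 11.41 and 11.25 untreated and 10.90 and 10.91 at day 4. Rsph1, Dnah5 and, below the filter, Foxj1, Ccdc39 and Tekt1 were lower in wild type but higher in TLR4-/-. For Foxj1 the differences were -0.14 and 0.59. The ciliated list thus had no shared direction in TLR4-/-, and its genes were named after their values were seen. AEC1 markers rose in 4 of 7, mesothelial markers in 3 of 3 and fibroblast markers in 1 of 2, and the single endothelial marker past the filter was not called (0 of 1).

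The Y-linked gene Eif2s3y read 6.82 and 6.86 in untreated wild type and TLR4-/- and 8.85 and 8.87 at day 4, and Xist, the transcript of the inactive X chromosome, read 11.41 and 11.30 untreated and 10.79 and 10.04 at day 4. The sex make-up of the pools therefore cannot be told apart from bleomycin for Pon1 or any other gene. The part of the ciliated, leukocyte and other markers in the values of the members was not tested.

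Among the genes around the cluster that passed the filter, none was called lower, and those below it were not tested. Of the 10 protein-coding genes on each side, 20 were on the array and 7 passed the filter. Of these 7, limma called 2 that rose after bleomycin and 0 that fell, where 7.18% of all genes rose and 2.53% fell. The median average was 0.18 against 0.04 for all genes. Both that rose lie beyond Pon2. Pdk4, a kinase that inhibits pyruvate dehydrogenase, rose by 0.73 ± 0.17 (limma adjusted p = 0.0159), and Asns, which makes asparagine, by 0.79 ± 0.16 (limma adjusted p = 0.00858); both lost the call with the brightest probe set and without the filter.

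On the other side, Ppp1r9a, the gene next to Pon1, encodes neurabin, a protein that ties a phosphatase to actin. It read 10.54 and 10.27 in untreated and 10.27 and 10.21 in day 4 wild type and TLR4-/- pools, averaging -0.16 ± 0.16, and did not pass. The paternally expressed gene Peg10, below the filter, was lower by -0.68 in wild type and -1.21 in TLR4-/-. Col1a2, a fibrillar collagen chain of fibroblasts, was below the filter too and was higher by 1.24 and 1.05. Sgce and Casd1, between Peg10 and Col1a2, were lower in both genotypes, averaging -0.20 ± 0.16 and -0.35 ± 0.17 without passing. Bet1, beyond Col1a2, was higher in both and averaged 0.29 ± 0.15 without passing.

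**Figure D3:**
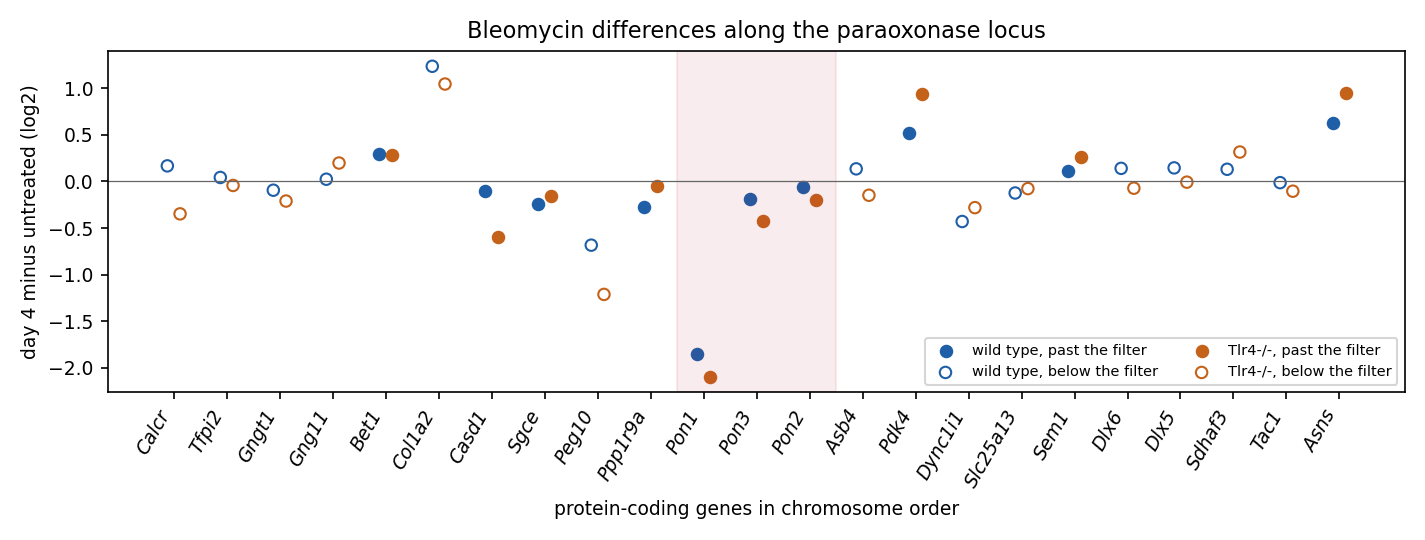
Day 4 minus untreated log2 difference of the 3 paraoxonases (shaded) and the 10 protein-coding genes on each side, in chromosome order and not to distance, with wild type in blue and TLR4-/- in orange. Open circles mark genes below the filter. Pon1, chosen for its fall, lies at -1.86 and -2.10, and Ppp1r9a next to it lies at -0.27 and -0.05.

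The genes whose profile was most like that of each member were found by the root-mean-square distance between log2 values centred on their own mean over the 4 arrays. For Pon1 the nearest were Ccl27a (0.30), Gpr153 (0.33), Gem (0.37), the neuritin gene Nrn1 (0.40) and the transcription factor gene Tox3 (0.42). The rule chose Pon1 for its fall, so its distance from other genes is a description. Pon3 was at 0.84 and Pon2 at 0.93 from Pon1. Pon2 and Pon3 were 0.11 apart, and many genes lay close to them because their profiles were nearly flat: Pias1 (0.0054) and Rps27 (0.013) were nearest to Pon2, and Msl2 (0.0068) and Tlx1 (0.0090) to Pon3.

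Enzymes that share substrates or roles with the paraoxonases were described by lists. These lists were tested for the bleomycin effect in the same limma fit, with counts of members past the filter. Over all 9097 genes 7.18% rose and 2.53% fell, the shares to set beside each count below. The lists are short, so a count near these shares says little about a list. Of the 20 calls in these lists and beside the cluster, the fits with treatment alone kept 0 without either day 4 array, 9 without the untreated wild-type array and 15 without the untreated TLR4-/- array. With all arrays, 5 of the 20 were called under each of the 5 other settings, namely Ephx1, Lactb, Srxn1, Gsto1 and Aox3.

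Among ester and lactone hydrolases, 2 of 8 rose and 1 fell, with a median of -0.02. Ephx1, the microsomal epoxide hydrolase, read 8.60 and 9.10 in untreated and 10.43 and 10.63 in day 4 wild type and TLR4-/- pools and rose by 1.68 ± 0.16 (limma adjusted p = 4.05e-05). It moved against Pon1 in both genotypes. Lactb, a mitochondrial protein related to bacterial beta-lactamases, rose by 1.05 ± 0.16, and Mgll, which cleaves monoacylglycerols, fell by 0.60 ± 0.16; Mgll was not called with the brightest probe set, with median centring or without the filter. Pgls, the lactonase of the pentose phosphate pathway, averaged 0.52 ± 0.16 without passing (limma adjusted p = 0.0557). The carboxylesterase gene Ces1d read 12.29 and 12.28 in untreated and 11.97 and 12.03 in day 4 pools, averaging -0.29 ± 0.16 without passing, and was named after its values were seen.

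Enzymes of peroxide and superoxide defence rose in 5 of 22 and fell in 0, with a median of 0.18. Srxn1, which restores oxidised peroxiredoxins, rose by 1.11 ± 0.16, followed by the extracellular dismutase Sod3 at 0.80 ± 0.17, the glutathione peroxidase Gpx2 at 0.72 ± 0.17, and the peroxiredoxins Prdx4 at 0.61 ± 0.15 and Prdx3 at 0.56 ± 0.16. All 4 after Srxn1 lost the call with the brightest probe set and without the filter, Prdx4 and Prdx3 also with median centring, and Prdx3 also with quantile normalization.

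Enzymes of drug and xenobiotic metabolism, a role shared with Pon1, rose in 3 of 22 and fell in 2, with a median of 0.17. Aox3, an aldehyde oxidase, read 11.69 and 11.66 in untreated and 10.73 and 10.47 in day 4 wild type and TLR4-/- pools and fell by 1.08 ± 0.16 (limma adjusted p = 0.00099). Both its day 4 arrays were below both untreated arrays, as in 21.7% of the 9097 genes. The mitochondrial aldehyde dehydrogenase Aldh2 fell by 0.62 ± 0.17, a call lost with the brightest probe set, with median centring and without the filter. The glutathione transferases Gsto1 and Gsta3 rose by 1.24 ± 0.16 and 0.69 ± 0.16, the call of Gsta3 being lost with the brightest probe set and without the filter, and Cyp3a13 rose by 0.76 ± 0.22, a call lost under each of the 5 other settings.

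Lipoprotein partners, which carry or remodel the particles that Pon1 protein rides on in plasma, rose in 4 of 11 and fell in 0, with a median of 0.01. Saa3, an acute phase apolipoprotein, read 6.69 and 8.37 in untreated and 8.50 and 8.56 in day 4 wild type and TLR4-/- pools and rose by 0.99 ± 0.28, a call lost under each of the 5 other settings. The phospholipid transfer protein Pltp rose by 0.77 ± 0.16, the sterol exporter Abcg1 by 0.72 ± 0.16 and the receptor Lrp1 by 0.71 ± 0.16, and each lost its call without the filter, Pltp and Lrp1 also with the brightest probe set and Lrp1 also with quantile normalization. Apoa1, the main protein of high-density lipoprotein, was near the filter at 7.06 and 7.32 untreated and 7.11 and 7.05 at day 4, and was named after its values were seen. Leukocyte markers rose in the same pools, and their part in these calls was not tested.

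Transcription factors studied as regulators of paraoxonase genes rose in 1 of 12 and fell in 0, with a median of -0.15. Among all genes 7.18% rose and 2.53% fell, so these counts do not set the regulators apart. Pparg, a lipid-sensing nuclear receptor, rose by 0.86 ± 0.17 (limma adjusted p = 0.0057), a call lost with the brightest probe set and without the filter. Leukocyte and macrophage markers rose in the same pools, and their part in the Pparg call was not tested. Ppara averaged -0.52 ± 0.17 and did not pass (limma adjusted p = 0.0747), and the sterol factors Srebf2 and Srebf1 averaged -0.39 ± 0.16 and -0.37 ± 0.19 without passing. Ahr and Sp1, whose motifs were searched above, averaged 0.10 and -0.16 without passing and were named after their values were seen.

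**Figure D4:**
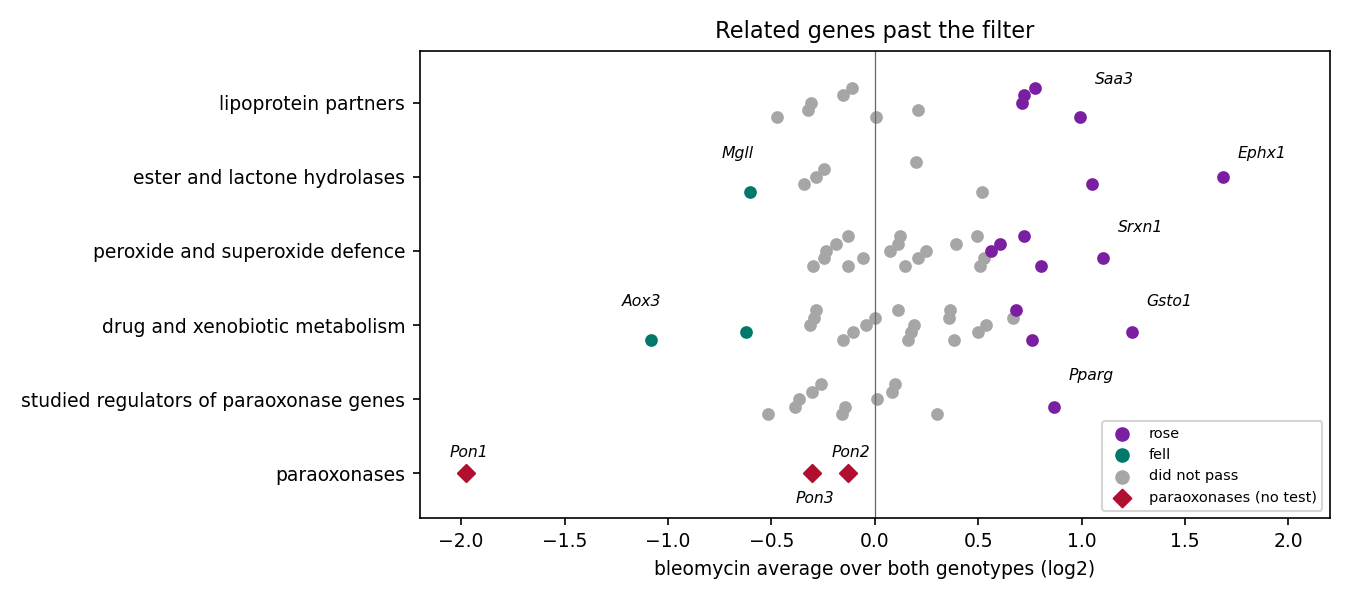
Bleomycin average over both genotypes (log2, horizontal) for genes past the filter in 5 lists, each point a gene, purple where limma called it higher, green where lower and grey where it did not pass, with the paraoxonases as untested diamonds. Points are spread vertically within a list only for sight. Pon1, chosen for its fall, lies at -1.98, and Aox3 at -1.08 is the lowest gene of the lists.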

How the data were processed

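Expression was measured on 1 Affymetrix array for each of 4 groups of sorted mouse AEC2. Per the labels' protocols, total RNA was extracted with Trizol from pooled cells, amplified and biotin labelled. The values the authors deposited were taken to be log2 signals, as their range fits that scale; the software, background correction and between-array normalization are not given in the sources used here. No detection calls or replicate arrays were used, so the number of arrays limits the precision.

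Symbols came from the platform annotation, updated through Entrez identifiers to RefSeq (34754 of 34958 probe sets with 1 symbol). Those with several symbols (932) or no symbol (9211) were not used. Probe sets were averaged per gene, and genes above the median mean were kept. limma 3.58.1 in R 4.3.3 was fitted with treatment and genotype, with Benjamini-Hochberg adjustment over 9097 genes and a threshold of 0.05. The prior had 11.4 degrees of freedom. In 10 simulations of the genotype effect over 9097 genes, a median of 98.0% of 2-fold and 100% of 4-fold changes were recovered, and 11.7% of calls were false, above the nominal 5%. Variances were drawn from the fitted prior, and each changed gene had the same shift on both TLR4-/- arrays. Differences in sex, pool or response were not simulated, so these shares do not give the power in the real data.

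The members, lists and tests were chosen with earlier results of these data known. Named genes were the members, up to 4 genes a list by size of the bleomycin average together with the called ones, the 10 neighbours on each side, the 5 nearest profiles and the 5 genes after Pon1 by the smaller fall; predicted and sex-linked genes were skipped unless said. Alternatives were the brightest probe set, quantile normalization, median centring, no filter, limma with trend and robust, each array left out and each probe set on its own.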

Additional observations from a re-analysis of the deposited data

Results flagged for a closer look

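Some members differed in sign between the groups of one contrast. With 1 array a group these differences were not tested, and 44.7% of the 9097 genes had opposite signs for genotype in the untreated and day 4 pools. TLR4-/- minus wild type was 0.10 untreated and -0.14 at day 4 for Pon1, and 0.10 and -0.14 for Pon3. Among the Pon2 probe sets it was -0.089 and 0.081 for 1429019_s_at and -0.015 and 0.27 for 1450686_at. For the last probe set, day 4 minus untreated was -0.0034 in wild type and 0.28 in TLR4-/-. Of these values, those beyond the spread of 0.23 between arrays were the 0.27 and 0.28 of probe set 1450686_at. That spread was estimated on gene averages, so it does not show that this probe set changed.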

How the results depend on the processing

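The bleomycin differences of Pon1 stayed 2-fold or more below 0 in both genotypes with quantile normalization and median centring, and those of Pon3 moved by less than the spread between arrays, though with quantile normalization its wild-type difference of -0.28 exceeded that spread. Pon1 and Pon3 have 1 probe set each, so the choice of probe set could not move them. Pon2 depended on it. With its brightest probe set, 1450686_at, the bleomycin difference in TLR4-/- became 0.28, the genotype difference at day 4 0.27 and the difference between responses 0.29. On their own, 1425791_at, 1429019_s_at and 1450686_at gave -0.88, 0.19 and 0.28 for bleomycin in TLR4-/-, and -0.72, 0.17 and 0.29 for the difference between responses. The genotype difference untreated was 1.01 for 1425791_at, -0.089 for 1429019_s_at and -0.23 for 1429020_at, and at day 4 it was 0.29 for 1425791_at, -0.49 for 1429020_at and 0.27 for 1450686_at. The cause was not tested.

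The genotype averages lay near 0, where a sign means little. With median centring they became 0.0044 for Pon1 and 0.0053 for Pon3. For Pon2, limma on single probe sets, added after seeing the data, gave -0.0037 for 1429019_s_at and -0.36 for 1429020_at (limma adjusted p = 0.661). Leaving out each array in turn, in fits with genotype alone, gave -1.07 to 1.03 for Pon1, 0.0054 to 0.20 for Pon2 and -0.23 to 0.19 for Pon3; these fits mix treatment into the contrast. No gene was called for genotype under these settings (0 each way).

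For bleomycin, 653 genes rose and 230 fell. The counts were 279 and 62 with the brightest probe set of each gene, 378 and 106 with median centring and 319 and 48 without the filter, and they ranged from 0 to 802 and from 0 to 227 with each array left out, in fits with treatment alone. No paired analysis was possible because each group has 1 array. Dim signals, such as that of Pon2 probe set 1425791_at, and bright ones near the top of the range limit the size of a fold.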
